A study of Rattus norvegicus with 6 samples.

Results

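Nlrp3, Pycard, Casp1, Casp8, Casp12, Gsdmd, Ripk3, Mlkl and Fas are genes of the inflammasome, of pyroptosis, of death receptor signalling, of necroptosis and of the caspase family. They were taken by gene symbol, and 9 of 9 were found among the 19616 genes with expression values in rat liver. An inflammasome is a protein complex in which a sensor such as NLRP3 and the adaptor encoded by Pycard activate the protease caspase-1, which matures interleukins and cuts gasdermin D, the pore-forming protein of pyroptosis. Death receptors such as FAS activate caspase-8, the initiator of extrinsic apoptosis, and where caspase-8 is inactive RIPK3 can phosphorylate MLKL, the executor of necroptosis. In the liver these pathways are best known from Kupffer cells and recruited leukocytes on the inflammasome side, and from hepatocytes for killing through FAS.

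The livers came from male SD rats, 3 in each group, with 1 library per rat. Rats of the FL group (FL2, FL5 and FL12) received CCl4, a solvent that damages hepatocytes, in olive oil. Injections of 2 mL/kg body weight went into the peritoneal cavity, 2 per week over 5 weeks. The CL group (CL5, CL6 and CL7) was given olive oil alone in equal volume. The age of the rats was not given in the sources used here. The values are FPKM, the fragments of a gene scaled by transcript length and by the mapped fragments of its library, and the number of reads behind a value is unknown. The comparison asks which genes differ between fibrotic and control liver.

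Of the 9 members, 1 was a differentially expressed gene (DEG), defined as an adjusted p under 0.05 in limma and a difference of at least 2-fold. This was Casp1, which was higher in the FL group and fell under the fold limit with a pseudocount of 1, with median scaling and with quantile normalization. Over all 14864 genes tested, 9.29% were DEGs with higher and 0.935% with lower expression in the FL group, so the members' count of 1 higher and 0 lower lies near that background. At an adjusted p under 0.05 alone, 3 of 9 members (Casp1, Gsdmd and Fas) were higher in the FL group, against 16.9% of all genes. In 6 of 9 members every FL rat was above every CL rat and in 0 below, against 35.7% and 4.78% of all genes, and the groups overlapped in Pycard, Ripk3 and Mlkl. At an unadjusted p under 0.05 in limma, 7 members were higher and 0 lower, against 31.5% and 4.04% of all genes.

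All 9 log2 fold changes were positive, with a median of 0.75 on the log2(FPKM + 0.1) scale. For genes of low FPKM, differences on that scale are understated. The median over all genes tested was itself shifted to 0.29. After median scaling this shift was 0.08, and after quantile normalization it was -0.04. The members' median was 0.53 with median scaling and 0.20 with quantile normalization, and the 9 fold changes stayed positive under both. Of all DEGs, 90.9% were higher in the FL group, which fell to 82.0% after median scaling and to 66.2% after quantile normalization. Summed over the 9 members, FPKM were 21.98 ± 1.71 in the CL group and 35.64 ± 1.29 in the FL group (mean ± SD, n = 3).

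**Figure D1:**
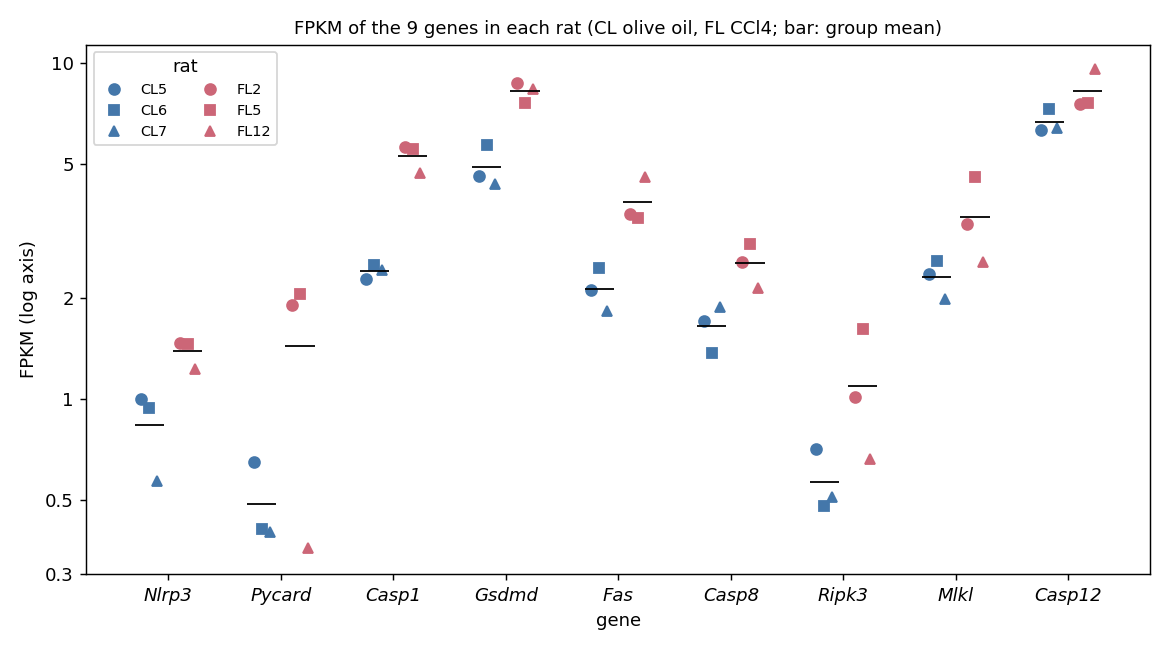
FPKM of the 9 genes (log axis) in each CL rat (blue) and FL rat (red), with a bar at the mean of each group of 3 rats. Casp1 lies between 2.27 and 2.51 FPKM among the CL rats and between 4.70 and 5.62 FPKM in the FL rats, whereas Pycard in FL12 (0.36 FPKM) lies below all CL rats.

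Nlrp3 (ENSRNOG00000003170, chromosome 10) encodes the sensor of the best-studied inflammasome. Its values were 1.0, 0.94 and 0.57 FPKM for rats CL5, CL6 and CL7 and 1.47, 1.46 and 1.23 FPKM for rats FL2, FL5 and FL12. The groups did not overlap, and CL7 stood below its group. The log2 fold change was 0.70, with a moderated standard error (SE) of 0.25 from limma, and missed the limit of the test (adjusted p = 0.0868). Under the alternatives the adjusted p lay between 0.0809 and 0.715.

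Pycard (ENSRNOG00000019675, chromosome 1), the gene of the adaptor ASC, was the least abundant member in the CL group. It read 0.65, 0.41 and 0.40 FPKM for rats CL5, CL6 and CL7, and 1.90, 2.05 and 0.36 FPKM for rats FL2, FL5 and FL12. FL2 and FL5 were high, while FL12 was lower than every CL rat, so the groups overlapped. The log2 fold change of 1.12 had a standard error of 0.57 and an adjusted p = 0.196. Without FL12 it was 1.85 with an adjusted p = 0.0157, which made Pycard a DEG, and without FL5 the log2 fold change was 0.74. Over the alternatives the adjusted p ranged from 0.0157 to 0.619. The macrophage markers Clec4f and Cd14 were also under all CL rats in FL12, whereas Cd68, Csf1r, Marco and Lyz2 were above them, and their values are given with the cell type markers.

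Casp1 (ENSRNOG00000007372, chromosome 8) encodes the protease that inflammasomes activate. Expression was 2.27, 2.51 and 2.42 FPKM for rats CL5, CL6 and CL7 against 5.62, 5.54 and 4.70 FPKM for rats FL2, FL5 and FL12. Every FL rat was far above every CL rat, and the spread within each group was small (2.40 ± 0.121 and 5.29 ± 0.510 FPKM, SD, n = 3 each). The log2 fold change was 1.10 (SE 0.14, adjusted p = 0.00414), and the increase was seen in 3 of 3 FL rats. The adjusted p stayed under 0.05 in 14 of 14 alternatives (0.00252 to 0.0241). The difference sits close to the 2-fold limit, and it fell under that limit with a pseudocount of 1 (log2 fold change 0.88), with median scaling (0.89) and with quantile normalization (0.75).

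Gsdmd (ENSRNOG00000007728, chromosome 7), whose product forms the pores of pyroptosis after cleavage, was the second most abundant member in the CL group. FPKM were 4.63, 5.73 and 4.37 in CL5, CL6 and CL7 and 8.77, 7.64 and 8.39 in FL2, FL5 and FL12. The groups were apart, with the lowest FL rat well above CL6, the highest CL rat. A log2 fold change of 0.75 (SE 0.14) passed the test with an adjusted p = 0.0124 but was under 2-fold. The adjusted p became 0.0733 with quantile normalization and 0.0534 without CL7, and it ranged from 0.00939 to 0.0733 over the alternatives.

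Fas (ENSRNOG00000019142, chromosome 1) encodes the death receptor for FAS ligand. In CL5, CL6 and CL7 it read 2.11, 2.45 and 1.83 FPKM, and in FL2, FL5 and FL12 3.55, 3.46 and 4.60 FPKM. FL12 was the highest rat here, in contrast to Pycard, and the groups did not overlap. The log2 fold change of 0.83 (SE 0.18) had an adjusted p = 0.0190 and was under 2-fold. Several alternatives took the adjusted p above 0.05, namely quantile normalization (0.128), and leaving out CL5 (0.0578), CL7 (0.0757) or FL12 (0.0540). Its range over the alternatives was 0.0139 to 0.128.

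Casp8 (ENSRNOG00000012331, chromosome 9), the initiator caspase downstream of FAS and a brake on necroptosis, was measured at 1.71, 1.37 and 1.88 FPKM for rats CL5, CL6 and CL7. In FL2, FL5 and FL12 it was at 2.56, 2.90 and 2.14 FPKM. The FL rats were all higher, FL12 by the smallest margin. Its log2 fold change was 0.59 (SE 0.19), which did not pass the test (adjusted p = 0.0677, range over the alternatives 0.0593 to 0.679).

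Ripk3 (ENSRNOG00000020465, chromosome 15) and Mlkl (ENSRNOG00000042353, chromosome 19) encode the kinase and the membrane-permeabilising effector of necroptosis. Ripk3 was at 0.71, 0.48 and 0.51 FPKM for rats CL5, CL6 and CL7 and at 1.01, 1.61 and 0.66 FPKM for rats FL2, FL5 and FL12. Mlkl was at 2.36, 2.57 and 1.98 FPKM among the CL rats and at 3.31, 4.58 and 2.56 FPKM in the FL rats, in the same order. Both genes had their highest value in FL5 and their lowest FL value in FL12, which lay within the range of the CL group. Neither passed the test, with log2 fold changes of 0.78 for Ripk3 (SE 0.33, adjusted p = 0.137) and 0.55 for Mlkl (SE 0.23, adjusted p = 0.126). Without FL5 the log2 fold changes were 0.48 and 0.33. Over the alternatives the adjusted p ranged from 0.0698 to 0.752 for Ripk3 and from 0.0660 to 0.704 for Mlkl. The ratio of Mlkl to Ripk3 FPKM was 3.32, 5.35 and 3.88 in the CL rats and 3.28, 2.84 and 3.88 in the FL rats. Mlkl thus exceeded Ripk3 in FPKM in all 6 rats, and protein was not measured.

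Casp12 (ENSRNOG00000033434, chromosome 8), a caspase associated with the endoplasmic reticulum, was the most abundant member in the CL group. It read 6.31, 7.33 and 6.43 FPKM for rats CL5, CL6 and CL7 and 7.59, 7.61 and 9.65 FPKM for rats FL2, FL5 and FL12. The FL rats were higher by a narrow margin, and FL12 stood above FL2 and FL5. A log2 fold change of 0.30 (SE 0.14, adjusted p = 0.167) did not pass the test and equalled the shift of all genes to within 0.01. Without FL12 it was 0.18, with median scaling 0.08 and with quantile normalization 0.04, and its adjusted p ranged from 0.130 to 0.882.

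**Figure D2:**
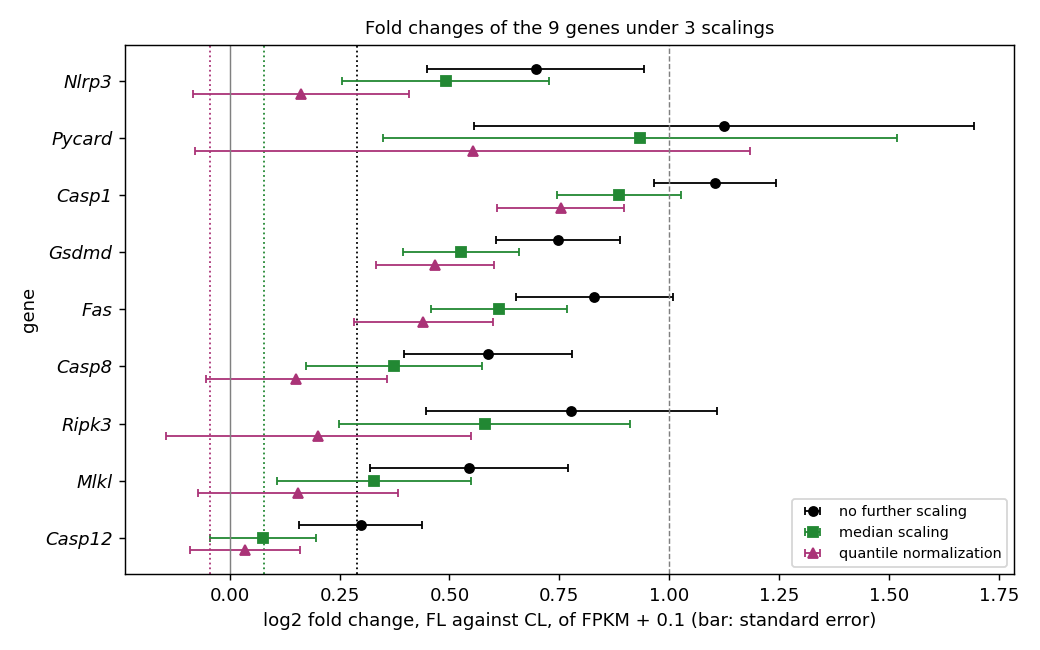
Log2 fold change of FL against CL for each of the 9 genes with its standard error, without further scaling (black), with median scaling (green) and with quantile normalization (purple). Dotted lines give the median of all genes in each case (0.29, 0.08 and -0.04) and the dashed line the 2-fold limit, which Casp1 passes only without further scaling.

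FPKM are per transcript length, so levels can be ordered between genes. In the CL group Casp12 (mean 6.69 FPKM) stood above Gsdmd (4.91 FPKM), and Gsdmd above Casp1 (2.40 FPKM), without overlap between neighbours. Casp1, Mlkl, Fas and Casp8 followed with ranges that overlapped from each to the next, as did those of Nlrp3, Ripk3 and Pycard at the bottom. In the FL group Casp12 (8.28 FPKM) and Gsdmd (8.27 FPKM) overlapped, and Casp1 (5.29 FPKM) stood apart from Gsdmd above it and from Fas (3.87 FPKM) under it. Fas, Mlkl and Casp8 overlapped from each to the next, and so did Pycard, Nlrp3 and Ripk3. Casp1 took 10.9% of the summed FPKM of the 9 members in the CL group and 14.8% in the FL group, while Casp12 took 30.4% and 23.2%.

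The rats of the FL group were not ordered alike in all members. FL12 was the lowest FL rat in 6 members and the highest in 2, Fas and Casp12. FL5 was the highest FL rat in 4 members. Casp1 and Pycard did not keep one relation in FPKM over the rats. The ratio of Casp1 to Pycard was 2.96 in FL2, 2.70 in FL5 and 13.1 in FL12, against 3.49, 6.12 and 6.05 in CL5, CL6 and CL7. Casp1 relative to the sensor gene Nlrp3 was more even among the FL rats only, at 3.82, 3.79 and 3.82 in FL2, FL5 and FL12. Among the CL rats this ratio varied as well, at 2.27, 2.67 and 4.25 in CL5, CL6 and CL7.

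Leukocyte-like markers were higher in the FL group too, and in bulk tissue fewer or more cells of a type and less or more RNA per cell cannot be told apart. Of 8 such markers 8 were DEGs with higher expression, against 9.29% of all genes. Summed over these markers, FPKM were 41.5, 51.5 and 42.6 in the CL rats and 123, 161 and 119 in the FL rats. Tyrobp was the most abundant of them. Ptprc, the gene of the pan-leukocyte antigen CD45, read 3.19, 3.25 and 3.12 FPKM for rats CL5, CL6 and CL7 and 8.12, 10.2 and 8.72 FPKM for rats FL2, FL5 and FL12 (log2 fold change 1.46, SE 0.13, adjusted p = 0.00165). This was a larger log2 fold change than that of any of the 9 members. Relative to Ptprc, Casp1 was at 0.712, 0.772 and 0.776 in the CL rats and at 0.692, 0.544 and 0.539 in the FL rats. In 7 of 9 members the ratio to Ptprc was lower in every FL rat than in every CL rat, and in 0 higher, against 72.1% and 2.14% of all genes, so this count lies near the background. In Pycard and Ripk3 it overlapped. The part of leukocyte content in the members' values was not tested.

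Macrophage-like markers summed to 213, 210.5 and 210.5 FPKM for rats CL5, CL6 and CL7 and to 436, 430 and 276 FPKM for rats FL2, FL5 and FL12, and 4 of 12 were DEGs with higher expression. FL12 was the lowest FL rat, as it was for Pycard. C1qc, the marker with the highest mean over the 6 rats, was at 77.4 and 81.4 FPKM in FL2 and FL5 and at 47.3 FPKM in FL12, close to the 43.7, 43.5 and 39.6 FPKM of the CL rats. Clec4f, which marks resident Kupffer cells, read 49.9, 43.2 and 48.4 FPKM among the CL rats, then 66.6 in FL2, 57.4 in FL5 and 26.3 FPKM in FL12. Cd14 in FL12 (4.02 FPKM) was under the CL rats as well (10.5, 16.4 and 14.0 FPKM), whereas Lyz2 was highest in FL12 (34.0 FPKM, against 23.2 and 26.3 FPKM in FL2 and FL5). The other DEGs of the list, Cd68, Csf1r and Marco, were at 31.8, 15.8 and 31.5 FPKM in FL12, the lowest FL rat in each but above the highest CL values of 12.4, 8.93 and 14.1 FPKM. Whether macrophage content accounts for the low Pycard of FL12 was not tested.

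Other cell type markers were given by summed FPKM in the same order of rats. Beside their DEG counts, the share of DEGs with higher expression among all genes was 9.29%. Neutrophil-like markers were low throughout (0.63, 1.16 and 1.28 FPKM among the CL rats, 5.68, 2.55 and 5.18 FPKM in the FL rats). Of 6 tested, 3 were DEGs with higher expression, S100a8 was the most abundant, and Mpo, Elane and Camp, which define the granules, were at 0 in 4 or 5 of the 6 rats each. Lymphocyte-like markers summed to 2.27, 2.92 and 3.65 FPKM and to 6.21, 5.73 and 3.68 FPKM. Of 9 tested, 1 was a DEG, near the share of all genes. Among them Prf1 was the most abundant gene over the 6 rats, but not in the FL group alone. Stellate cell or myofibroblast-like markers summed to 90.4, 93.7 and 87.1 FPKM and to 213, 558 and 509 FPKM, with 6 DEGs of 10 tested and Col3a1 as the most abundant. Endothelial-like markers summed to 79.3, 76.8 and 69.3 FPKM and to 93.2, 80.4 and 88.8 FPKM. Of 7 tested, 1 was a DEG, also near the share of all genes. Kdr was the most abundant over the 6 rats, though not in the FL group alone.

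The remaining marker lists held no DEG in limma. At an unadjusted p under 0.05 in limma, 31.5% of all genes were higher and 4.04% lower. Hepatocyte-like markers, led by Alb, summed to 57845, 54889 and 56560 FPKM among the CL rats and to 53975, 48106 and 47202 FPKM in the FL rats, and of 10 tested 2 were higher and 1 lower at an unadjusted p under 0.05. Without overlap between the groups, 2 were higher and 3 lower, against 35.7% and 4.78% of all genes. Alb was among the lower, at 33392, 31431 and 31992 FPKM in the CL rats and 24149, 25052 and 25209 FPKM in the FL rats. Its log2 fold change was -0.38 with a moderated SE of 0.98. The spread over rats was small (SD 1010 FPKM in CL and 572 FPKM in FL), and the prior variance of limma enlarged this SE. Alb was the highest of all listed markers in each of the 6 rats. Cholangiocyte-like markers, led by Epcam, were at 5.54, 7.75 and 5.65 FPKM and at 5.49, 8.18 and 11.5 FPKM (1 of 6 higher at an unadjusted p under 0.05). Red blood cell-like markers, led by Hbb, were at 69.5, 107 and 72.0 FPKM and at 71.7, 34.5 and 37.1 FPKM (1 of 4 lower at an unadjusted p under 0.05). The part of these cell types in the members' values was not tested.

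Around the members, other genes of the inflammasome and of pyroptosis held 1 DEG with higher and 1 with lower expression in the FL group, against 9.29% and 0.935% of all genes. Of 29 genes listed, 26 had values and 23 were tested. At an unadjusted p under 0.05 in limma, 14 were higher and 2 lower, where all genes gave 31.5% and 4.04%. The median log2 fold change was 0.57, beside 0.29 for all genes, with 19 positive and 4 negative values. It was 0.35 after median scaling, with 19 positive and 4 negative values. After quantile normalization it was 0.21, with 16 positive and 7 negative values. Gbp5, an interferon-inducible GTPase that promotes NLRP3 assembly, was the DEG with higher expression and rose from 0.94, 1.18 and 0.72 FPKM to 2.95, 3.41 and 2.01 FPKM (log2 fold change 1.46, SE 0.26, adjusted p = 0.0101). All 3 FL rats were above the CL rats. The rise of Gbp5 fell under 2-fold with a pseudocount of 1 (log2 fold change 0.95) and with quantile normalization (0.98), where the adjusted p was 0.0601 (range 0.00827 to 0.0601). Nlrp12, a NOD-like receptor known as a negative regulator of inflammatory signalling, fell from 5.11, 6.66 and 6.44 FPKM to 2.49, 2.80 and 3.11 FPKM. Its log2 fold change was -1.09 (SE 0.16, adjusted p = 0.00559), all 3 FL rats were under the CL rats, and with a pseudocount of 1 it was under 2-fold (-0.89).

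A further 5 genes of that list, Casp4, Nlrp1a, Nlrc4, Txnip and Ninj1, had an adjusted p under 0.05 at less than 2-fold and were higher in the FL group. With Gbp5, 6 of 23 genes tested were higher at an adjusted p under 0.05 in limma, against 16.9% of all genes. Casp4, the rat gene of the protease that senses cytosolic lipopolysaccharide and cuts gasdermin D, read 4.49, 6.66 and 4.32 FPKM among the CL rats and 7.68, 8.14 and 10.6 FPKM in the FL rats (log2 fold change 0.77, adjusted p = 0.0350). Ninj1, which ruptures the plasma membrane late in pyroptosis, was the most abundant gene of the list at 55.1, 60.6 and 58.6 FPKM against 73.4, 73.4 and 85.6 FPKM (log2 fold change 0.41, adjusted p = 0.0475). Txnip, reported to bind NLRP3, was at 18.7, 18.1 and 19.8 FPKM against 35.3, 24.1 and 24.8 FPKM, with FL2 the highest (adjusted p = 0.0476). These values lie near the limit, since the adjusted p was under 0.05 in 2 of 14 alternatives for Ninj1 (0.0398 to 0.309), 4 of 14 for Txnip (0.0449 to 0.288) and 6 of 14 for Casp4 (0.0254 to 0.129). With 1 rat left out, Ninj1 and Txnip passed only without FL2, and Casp4 only without CL6 or FL2. Nlrp1a and Nlrc4 encode other inflammasome sensors. Nlrp1a was at 0.61, 0.49 and 0.65 FPKM against 1.03, 1.16 and 1.20 FPKM (log2 fold change 0.85, adjusted p = 0.0324), and Nlrc4 at 1.21, 0.86 and 0.65 FPKM against 1.53, 1.67 and 1.73 FPKM (log2 fold change 0.83, adjusted p = 0.0487). The groups did not overlap in either, and the adjusted p was under 0.05 in 5 of 13 alternatives for Nlrp1a (0.0213 to 0.451) and in 3 of 14 for Nlrc4 (0.0406 to 0.425). With 1 rat left out, Nlrp1a passed only without FL2, and Nlrc4 only without CL5, where it also passed the fold limit (log2 fold change 1.04). P2rx7, the ATP-gated channel upstream of NLRP3, was at 14.2, 15.5 and 12.7 FPKM among the CL rats and 11.9, 10.7 and 8.97 FPKM in the FL rats, every FL rat being lower, and did not pass the test (log2 fold change -0.43, adjusted p = 0.0710). The adjusted p of P2rx7 was under 0.05 in 3 of 14 alternatives, namely median scaling (0.0304), quantile normalization (0.0396) and without FL2 (0.0403), and its range was 0.0304 to 0.191.

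Gsdmd passed the test among the substrates of caspase-1, and the interleukin genes Il1b and Il18 did not. Il1b, the gene of interleukin-1β, read 0.88, 0.71 and 0.55 FPKM for rats CL5, CL6 and CL7 and 1.55, 0.74 and 0.76 FPKM for rats FL2, FL5 and FL12 (log2 fold change 0.40, SE 0.32, adjusted p = 0.402). FL2 was high, FL5 and FL12 lay within the CL range, and the log2 fold change was 0.084 without FL2 and -0.18 with quantile normalization. Il18, the other interleukin gene whose product caspase-1 matures, was at 2.39, 3.24 and 3.47 FPKM against 4.35, 4.80 and 4.32 FPKM, without overlap (log2 fold change 0.57, SE 0.17, adjusted p = 0.0524). Its adjusted p was under 0.05 in 2 of 14 alternatives (0.0418 to 0.435).

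In death receptor signalling and necroptosis, 27 genes were listed besides the members, 25 had values and 23 were tested. DEGs with higher expression in the FL group numbered 4 and those with lower expression 0, against 9.29% and 0.935% of all genes. At an unadjusted p under 0.05 in limma 10 were higher and 0 lower, beside 31.5% and 4.04% of all genes. The list's median log2 fold change was 0.36, near the 0.29 of all genes, with 19 positive and 4 negative values, or 14 and 9 after median scaling. This median was 0.14 with median scaling and 0.03 with quantile normalization, where 13 values were positive and 10 negative. Tnfrsf21 (death receptor 6) rose from 0.33, 0.58 and 0.54 FPKM to 1.45, 1.89 and 2.16 FPKM (log2 fold change 1.74, SE 0.26, adjusted p = 0.00634). Its adjusted p stayed under 0.05 in 14 of 14 alternatives, and its fold change was under 2-fold with a pseudocount of 1 (0.93).

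The other DEGs of that list were the NF-κB target genes Birc3 and Tnfaip3, which restrain cell death and inflammatory signalling, and Zbp1. Birc3, a ubiquitin ligase of the TNF receptor complex, was at 1.03, 1.20 and 1.46 FPKM against 3.40, 2.60 and 2.59 FPKM (log2 fold change 1.16, adjusted p = 0.00940). Tnfaip3, the ubiquitin-editing enzyme A20, was at 1.17, 1.53 and 1.91 FPKM against 4.09, 3.25 and 2.65 FPKM (log2 fold change 1.07, adjusted p = 0.0192). Both had their highest value in FL2. Zbp1, a nucleic acid sensor that engages RIPK3, was at 0.21, 0.40 and 0.22 FPKM against 1.17, 1.08 and 0.47 FPKM (log2 fold change 1.37, adjusted p = 0.0446). Of these, Birc3 was under 2-fold with a pseudocount of 1 and with median scaling and had an adjusted p = 0.0951 with quantile normalization. The adjusted p of Zbp1 was under 0.05 in 3 of 13 alternatives (0.0252 to 0.276), and of the rats only FL12 could be left out without losing it. That of Tnfaip3 was under 0.05 in 9 of 14 alternatives (0.0151 to 0.170), and was above it with both scalings and without CL5 (0.0584), CL6 (0.0553) or FL5 (0.0622). Tnfaip3 was also under 2-fold with a pseudocount of 1 (log2 fold change 0.77) and without FL2 (0.92), and was a DEG in 7 alternatives.

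A further 3 genes of the list, Tnfrsf1b, Rbck1 and Bid, were higher with an adjusted p under 0.05 at less than 2-fold, without overlap between the groups. With the DEGs, 7 of 23 genes tested were higher at an adjusted p under 0.05 in limma, against 16.9% of all genes. Tnfrsf1b, the gene of TNF receptor 2, was at 4.21, 4.0 and 3.87 FPKM against 9.24, 6.70 and 8.46 FPKM (log2 fold change 0.98, adjusted p = 0.00614). It kept an adjusted p under 0.05 in 14 of 14 alternatives (0.00429 to 0.0409), and passed the fold limit without CL5 (log2 fold change 1.02), without FL5 (1.12) and with a pseudocount of 0.01. Bid, whose product caspase-8 cuts, was at 2.97, 3.02 and 2.83 FPKM against 4.48, 4.79 and 4.83 FPKM (log2 fold change 0.66, adjusted p = 0.0124), and missed the test with quantile normalization (adjusted p = 0.119) and without CL7 (0.0548), within a range of 0.00804 to 0.119. Rbck1, a subunit of the linear ubiquitin ligase complex, was at 7.04, 6.80 and 5.70 FPKM against 8.95, 9.28 and 9.57 FPKM (log2 fold change 0.51, adjusted p = 0.0289). Its adjusted p was under 0.05 in 6 of 14 alternatives (0.0244 to 0.193), and with 1 rat left out only without FL2.

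Faslg, Fadd and Ripk1 did not pass the test. Faslg, the gene of FAS ligand, was at 0.23, 0.19 and 0.25 FPKM among the CL rats and at 0.27, 0.11 and 0.14 FPKM in the FL rats (adjusted p = 0.616). Fadd, the adaptor between FAS and caspase-8, was at 1.84, 2.90 and 2.09 FPKM against 1.35, 2.14 and 2.90 FPKM (adjusted p = 0.774). Ripk1, the kinase upstream of RIPK3, was at 5.57, 5.53 and 5.75 FPKM against 7.52, 6.16 and 5.88 FPKM (log2 fold change 0.20, adjusted p = 0.304, and -0.02 with median scaling). The groups overlapped in Faslg and Fadd and did not in Ripk1. The most abundant genes of the list that were no DEGs were Tnfrsf1a (38.4 and 47.6 FPKM as means of CL and FL), Xiap and Cflar. Cflar, the inhibitor of caspase-8, read 10.6, 10.4 and 8.33 FPKM against 11.95, 10.7 and 9.37 FPKM, and its log2 fold change of 0.13 turned to -0.10 with median scaling. For Xiap, an inhibitor of caspases, the values were 20.5, 13.2 and 13.2 FPKM against 18.2, 19.8 and 20.8 FPKM, with CL5 apart from its group, and without CL5 its adjusted p was 0.0380 (range over the alternatives 0.0380 to 0.671).

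Among the other caspases and the genes of mitochondrial apoptosis, 26 were listed, 22 had values and 20 were tested. DEGs were 6 with higher and 0 with lower expression, where all genes gave 9.29% and 0.935%. At an unadjusted p under 0.05 in limma 10 were higher and 0 lower, where all genes gave 31.5% and 4.04%. The median log2 fold change was 0.48, with 19 positive values and 1 negative, or 16 and 4 after median scaling and 12 and 8 after quantile normalization. This median was 0.27 with median scaling and 0.03 with quantile normalization. All 6 DEGs belong to the BCL2 family or the inhibitors of apoptosis, and none is a caspase. Bcl2a1, an anti-apoptotic gene of leukocytes, rose from 1.17, 1.36 and 1.28 FPKM to 4.82, 5.43 and 3.90 FPKM (log2 fold change 1.80, SE 0.17, adjusted p = 0.00170). It kept an adjusted p under 0.05 in 14 of 14 alternatives (0.00103 to 0.0137). Bok, a pro-apoptotic effector, rose from 0.24, 0.39 and 0.17 FPKM to 0.92, 1.53 and 1.80 FPKM (log2 fold change 2.04, adjusted p = 0.00855), and was under 2-fold with a pseudocount of 1 (0.92).

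Bak1 and Bcl2l11, pro-apoptotic as well, were at 1.28, 1.38 and 1.48 against 3.27, 4.04 and 2.41 FPKM, and at 1.28, 1.38 and 1.18 against 2.16, 2.79 and 3.26 FPKM. Their adjusted p were 0.0112 and 0.0126, and both were under 2-fold with a pseudocount of 1, median scaling or quantile normalization, the last with adjusted p of 0.0908 and 0.0647. Bak1 was also under 2-fold without FL5 (log2 fold change 0.98), as was Bcl2l11 without CL7 (0.97, adjusted p = 0.0549) or FL12 (0.89). Birc5, the gene of survivin, which is expressed in dividing cells, was at 0.20, 0.55 and 0.43 FPKM against 0.99, 3.70 and 3.19 FPKM, with FL2 the lowest FL rat (log2 fold change 2.35, SE 0.50, adjusted p = 0.0187). Without FL5 its adjusted p was 0.0693, without FL12 0.0630, without CL5 0.0604, without CL7 0.0587 and with quantile normalization 0.0559, within a range of 0.00416 to 0.0693. Bcl2 was at 0.15, 0.17 and 0.11 FPKM against 0.34, 0.41 and 0.79 FPKM (adjusted p = 0.0487), and its adjusted p was under 0.05 in 3 of 13 alternatives (range 0.0339 to 0.225) and lost in each rat's absence but that of FL2.

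Cycs, the gene of cytochrome c and the most abundant of that list, was at 35.2, 34.0 and 32.2 FPKM against 32.0, 36.1 and 41.1 FPKM (log2 fold change 0.10, adjusted p = 0.591). The groups overlapped, and the log2 fold change was -0.12 with median scaling.

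**Figure D3:**
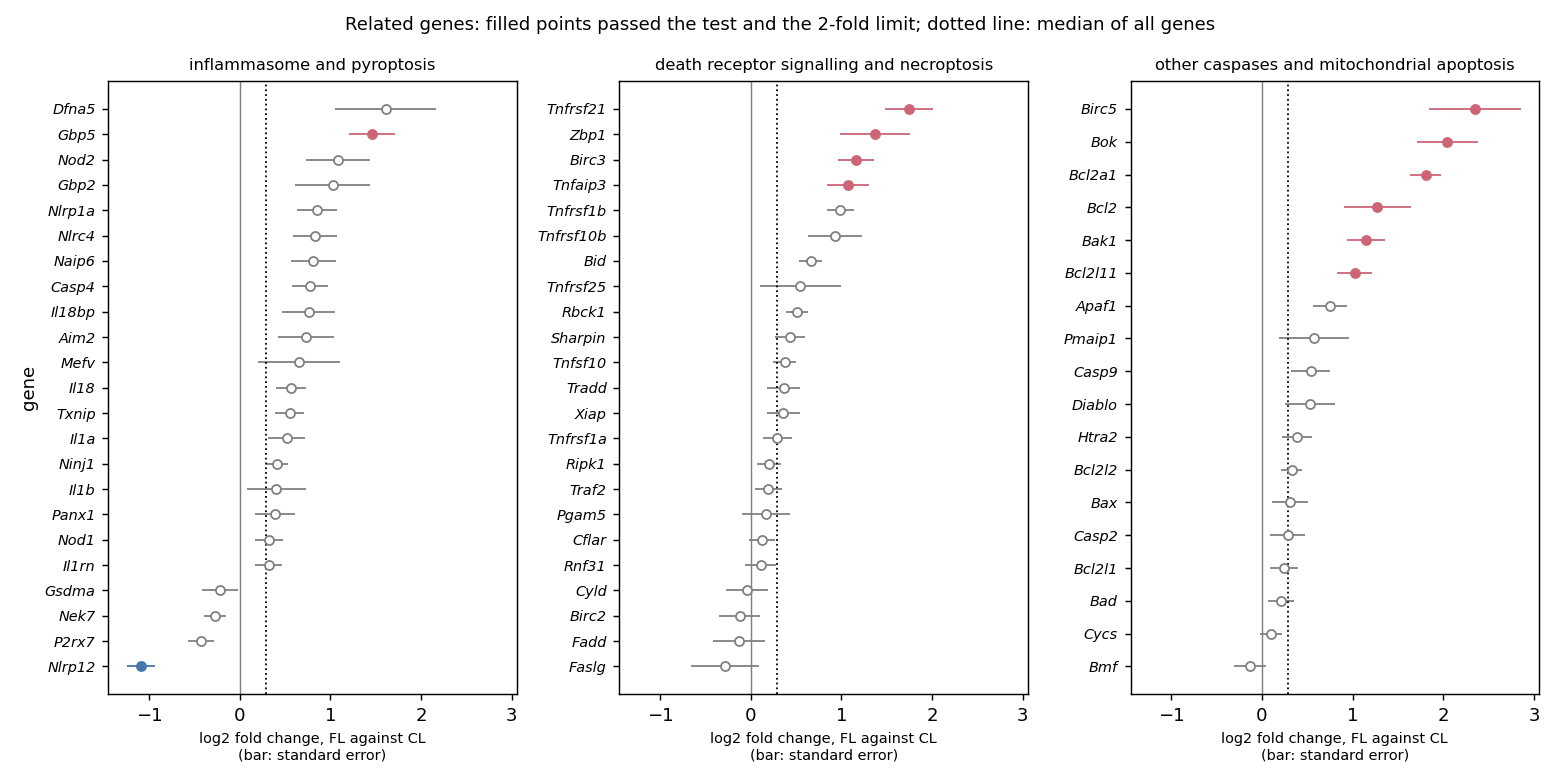
Log2 fold changes of FL against CL with standard errors for tested genes of the inflammasome and pyroptosis, of death receptor signalling and necroptosis, and of other caspases and mitochondrial apoptosis, without those not reported here. Filled points are DEGs, higher (red, 1, 4 and 6 genes) or lower (blue, Nlrp12), and the dotted line is the median of all genes (0.29).

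Some members are neighbours in the genome. In the RefSeq annotation of GRCr8, in which 9 of 9 members were found by symbol on the chromosomes that the expression table gives, Casp1, Casp4 and Casp12 follow each other on chromosome 8 without another protein-coding gene in between. Their log2 fold changes were 1.10, 0.77 and 0.30 in that order. Casp8 lies next to its inhibitor Cflar on chromosome 9, and Fas lies next to Acta2, a myofibroblast marker, on chromosome 1. Acta2 read 3.85, 2.62 and 2.68 FPKM among the CL rats and 3.87, 17.3 and 9.59 FPKM in the FL rats, with FL5 highest, whereas Fas was highest in FL12. Whether reads of protein-coding genes were counted by strand was not given in the sources used here, so it is unknown whether reads of overlapping neighbours were kept apart.

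RefSeq promoter sequences of GRCr8 (250 bases before to 50 after the start) were held for 7 of 9 members, all but Casp8 and Gsdmd. They were searched on both strands for 4 motifs. GAAANNGAA, the core of the interferon-stimulated response element, was in 9.71% of 33469 promoters of 300 bases. TTCNNNGAA, the gamma-activated site, was in 8.87%, GAGGAAGT, bound by ETS factors such as PU.1, in 2.42%, and GGGANTTTC of the kappa B site in 1.15%. A match was found in 4 members, Nlrp3, Casp1, Casp12 and Fas. In Nlrp3 it was a gamma-activated site (TTCAAAGAA) at -121 to -113 from the start.

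The promoters of Casp1 and Casp12 hold the same 9 letters, TTCAGTTTC, a match of the response element on the minus strand. They lie at -27 to -19 in Casp1 and at -37 to -29 in Casp12, which also has a gamma-activated site (TTCTGGGAA) at -74 to -66. Fas has TTCTCTTTC of the response element at 39 to 47, and ACTTCCTC of the ETS motif at -173 to -166. These promoters are shown because Casp1 and Fas passed the test and Casp12, next to Casp1, did not. They run 5′ to 3′ on the plus strand of GRCr8 at chr8:10872580-10872879 (Casp1), chr8:10926938-10927237 (Casp12) and chr1:241211905-241212204 (Fas), with the matches in capitals.
Casp1: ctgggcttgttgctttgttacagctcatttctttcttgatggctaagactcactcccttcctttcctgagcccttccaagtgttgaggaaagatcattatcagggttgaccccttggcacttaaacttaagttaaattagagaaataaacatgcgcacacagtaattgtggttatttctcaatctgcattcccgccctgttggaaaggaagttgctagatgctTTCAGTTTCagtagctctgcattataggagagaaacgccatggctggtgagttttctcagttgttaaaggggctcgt
Casp12: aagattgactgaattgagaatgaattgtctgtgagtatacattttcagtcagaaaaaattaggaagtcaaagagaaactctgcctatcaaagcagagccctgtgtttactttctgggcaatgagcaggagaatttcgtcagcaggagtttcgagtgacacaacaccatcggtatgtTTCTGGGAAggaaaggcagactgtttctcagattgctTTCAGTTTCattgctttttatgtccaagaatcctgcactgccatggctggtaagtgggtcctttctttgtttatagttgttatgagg
Fas: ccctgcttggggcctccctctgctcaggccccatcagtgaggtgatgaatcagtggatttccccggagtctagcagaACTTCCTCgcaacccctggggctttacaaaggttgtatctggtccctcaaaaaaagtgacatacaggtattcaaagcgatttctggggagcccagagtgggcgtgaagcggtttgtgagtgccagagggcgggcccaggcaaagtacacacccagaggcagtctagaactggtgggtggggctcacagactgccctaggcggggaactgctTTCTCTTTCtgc
A match describes the letters in the window and was not tested as a binding site.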

How the data were processed

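Liver RNA of 3 FL and 3 CL rats was sequenced after ribosomal RNA had been removed. The authors aligned reads with TopHat2 (named in the submitters' processing notes), counted uniquely mapped reads and deposited FPKM values per gene and rat. The genome was named GRCh38, although the gene identifiers are Ensembl's of the rat. Another 2 value columns matched no sample and were not used. Summed FPKM were 309425, 340467 and 315259 in CL5, CL6 and CL7 and 309226, 272350 and 272110 in FL2, FL5 and FL12. Read depth was not used here. Standard errors combine the spread over rats with the prior variance of limma, which follows a trend with expression level. Pairs of rats shared identical values above 0 in 0.242% to 1.62% of genes tested, a share that shows no duplicated library.

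Differences were tested with limma 3.58.1 (R 4.3.3, prior variance with a trend) on log2(FPKM + 0.1) over 14864 genes, those whose mean reached 0.1 FPKM. Adjusted p-values are Benjamini-Hochberg's over all of them. The alternatives tried changed the pseudocount (1 or 0.01), the filter (none, or a mean of 1 FPKM), the scaling (by medians or quantiles), the prior variance (flat or robust) or the fold limit (none), or left out 1 rat. Python 3.11.15 with pandas 2.3.3, numpy 2.4.6 and matplotlib 3.10.9 was used for descriptions and plots.

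Members and lists were chosen with earlier results of these data known. Named genes were all members, the DEGs of each pathway list (at most 8 per direction), the 3 most abundant other genes of each list, the gene nearest in profile to each member, and the most abundant and defining markers, abundance being the mean over the 6 rats. Casp4, Nlrp1a, Nlrc4, Il1b, Il18, Faslg, Fadd, Ripk1, Tnfrsf1b, Rbck1, Bid, Cd68, Csf1r, Marco and Acta2 were added after their values were seen. Listed genes without values (Nlrp2, Nlrp6, Gsdmc, Tnf, Ticam1, Casp14, Bbc3, Hrk, Mcl1, Tff2, Pecam1, Hba-a1 and Hba-a2) were not analysed here. Some genes of the list of other caspases and mitochondrial apoptosis enter its counts and median but are not reported here by name.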

Additional observations from a re-analysis of the deposited data

How the results depend on the processing

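The 9 members kept a positive log2 fold change under every alternative run, and 117 of their fits stayed on the same side of an adjusted p of 0.05, 6 rose above it (Gsdmd and Fas) and 1 dropped under it (Pycard without FL12). For the other genes named in the pathway lists, 305 fits stayed on the same side, 94 rose above it and 6 dropped under it without a change of sign. The number of members that were DEGs with higher expression (1) was 0 with a pseudocount of 1, 0 with median scaling, 0 with quantile normalization and 3 without the fold limit, and 1 to 2 when 1 rat was left out. For inflammasome and pyroptosis genes the count higher (1) was 0 with a pseudocount of 1, 0 with quantile normalization, 2 without the trend, 6 without the fold limit and 1 to 3 with 1 rat left out, and the count lower (1) was 0 with a pseudocount of 1. For death receptor and necroptosis genes the count higher (4) was 0 with a pseudocount of 1, 1 with median scaling, 1 with quantile normalization, 7 without the fold limit and 2 to 4 with 1 rat left out, the lowest without CL6. For other caspases and mitochondrial apoptosis the count higher (6) was 2 with a pseudocount of 1, 3 with median scaling, 2 with quantile normalization and 3 to 6 with 1 rat left out, the lowest without CL7, FL5 or FL12. The log2 fold changes of 5 genes that were no DEGs changed sign in 9 fits. Cflar (0.13) was -0.096 with median scaling and -0.10 with quantile normalization, Cycs (0.10) in the same order -0.12 and -0.0026, Ripk1 (0.20) was -0.017 and -0.084, and Il1b (0.40) was -0.18 with quantile normalization. Fadd (-0.13) was 0.051 without CL6 and 0.15 without FL2, and was negative in the others, with -0.37 without FL12, -0.34 with median scaling and -0.55 with quantile normalization. Except where the fold limit itself set the change, the cause was not tested, also where 1 rat was left out.

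Over all genes, 1381 DEGs were higher and 139 lower. These counts were 462 and 72 with a pseudocount of 1, 854 and 94 where the mean had to reach 1 FPKM, 826 and 181 with median scaling, 453 and 231 with quantile normalization, and 2518 and 288 without the fold limit. With 1 rat left out they were 740 (without CL7) to 1831 (without FL2) higher and 81 (without CL6 or CL7) to 160 (without FL2) lower. No paired analysis was run, since the rats had been divided at random between the groups and a shared number does not make a pair. With a mean of at least 1 FPKM, Pycard and Ripk3 were not tested.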

Other observations

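For each member, the gene with the most similar profile over the 6 rats was sought among about 10160 other protein-coding genes whose mean reached 1 FPKM. The measure was the root mean square distance between log2(FPKM + 0.1) profiles, each centred on its own mean, and many genes lie near any profile that differs between the groups. Casp1 was nearest to Wdr6 (0.0576), whose values were 1.77, 1.99 and 1.82 FPKM for the CL rats (CL5, CL6, CL7) and 3.94, 4.18 and 3.60 FPKM for the FL rats (FL2, FL5, FL12). Nlrp3 was nearest to RGD1559575 (0.0557), Gsdmd to Sdhaf1 (0.0590), Fas to Tef (0.0532), Casp8 to Med30 (0.0746), Mlkl to Ido2 (0.0645) and Ripk3 to RT1-N3 (0.119). Casp12 had the closest neighbour of the 9, Recql (0.0293).

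Pycard had the most distant nearest gene, Cyp8b1 (0.235), the sterol 12-alpha-hydroxylase of bile acid synthesis. Cyp8b1 was at 107, 102 and 73.6 FPKM for the CL rats, at 277 and 306 FPKM in FL2 and FL5 and at 92.3 FPKM in FL12. As in Pycard, FL2 and FL5 were high and FL12 lay within or below the CL rats. Their distance was not tested.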
